A study of Mus musculus with 8 samples.

Results

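The 10 genes of myeloid C-type lectin receptors described here were followed in cultured mouse macrophages: Clec4d, Clec4e, Clec4n, Clec7a, Clec5a, Clec12a, Clec4a1, Clec4a2, Clec4a3 and Clec10a. They were taken by symbol from a list, and all 10 were among the 11541 genes of the deposited table. RNA came from bone marrow-derived macrophages of mice, 4 libraries carrying the genotype label OGFRL1_KO (Ogfrl1 deficient, here KO) and 4 the label OGFRL1_WT (wild type, here WT). All were non-adherent marrow cells given M-CSF (macrophage colony-stimulating factor) at 25 ng/mL over 4 days, and no other agent or time point was used. Replicate numbers used below follow sample order within each label. The labels give neither the strain, age and sex of the mice nor how the allele was made. Each library title carries a number of its own, but nothing in the labels tells whether the libraries came from different mice. The p-values below therefore reflect library-to-library spread, which may be partly technical.

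C-type lectin receptors are membrane proteins of myeloid cells that share a lectin-like fold and bind sugars or lipids of fungi, mycobacteria and dying cells. Activating members signal through the kinase Syk, either by a tyrosine motif in their own tail (Clec7a, Dectin-1) or by the adaptors FcRγ, encoded by Fcer1g (Clec4d, Clec4e and Clec4n), and DAP12, encoded by Tyrobp (Clec5a), and Syk then acts through Card9, Bcl10 and Malt1 on NF-κB. Inhibitory members such as Clec4a2 and Clec12a carry a tail motif that recruits the phosphatases encoded by Ptpn6 and Ptpn11.

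All but 1 of the 10 genes lay on chromosome 6 (mm10, coordinates of the deposited table). A run was formed by 6 of them, with no other row of the table between them: Clec4a1 (122921848 to 122934619), Clec4a3 (122952515 to 122969878), Clec4a2 (123122690 to 123143999), Clec4n (123229843 to 123247024), Clec4d (123262107 to 123275268) and Clec4e (123281789 to 123289871). Genes left out of the table, which lacks Clec4a4, Clec4b1 and Clec4b2, could lie between these 6. Clec4d and Clec4e, on the plus and the minus strand, ended 6.52 kb apart. Clec12a (129350244 to 129365303) and Clec7a (129461591 to 129472779) lay 96.3 kb from each other with 1 row of the table between them, Clec5a lay farther off (40574898 to 40585805), and Clec10a was on chromosome 11 (70166623 to 70170836). The exons in the table merged into 6 separate blocks for Clec4d, Clec4e, Clec4n, Clec4a1, Clec7a and Clec12a, 7 for Clec4a3 and Clec5a, 8 for Clec4a2 and 10 for Clec10a.

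Promoter windows of 300 bases (250 before to 50 after the start) were found for 8 of the 10 genes in a RefSeq table of build GRCm38.p6, and in all 8 the start equalled the one in the deposited table. Those of 4 genes are printed 5′ to 3′ because they belong to 2 pairs of neighbours: Clec4d varied less between libraries than Clec4e, and Clec4a1 and Clec4a3 were high in the same libraries. Capitals mark GAGGAA on either strand (TTCCTC where it lies on the other), the core bound by the myeloid factor PU.1.
Clec4d, chr6:123261857-123262156, plus strand: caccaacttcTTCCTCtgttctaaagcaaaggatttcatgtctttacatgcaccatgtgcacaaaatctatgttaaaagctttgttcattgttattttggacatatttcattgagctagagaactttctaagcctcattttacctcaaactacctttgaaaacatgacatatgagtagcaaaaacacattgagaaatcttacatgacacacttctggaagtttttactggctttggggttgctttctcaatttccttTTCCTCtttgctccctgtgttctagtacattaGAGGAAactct
Clec4e, chr6:123289822-123290121, minus strand: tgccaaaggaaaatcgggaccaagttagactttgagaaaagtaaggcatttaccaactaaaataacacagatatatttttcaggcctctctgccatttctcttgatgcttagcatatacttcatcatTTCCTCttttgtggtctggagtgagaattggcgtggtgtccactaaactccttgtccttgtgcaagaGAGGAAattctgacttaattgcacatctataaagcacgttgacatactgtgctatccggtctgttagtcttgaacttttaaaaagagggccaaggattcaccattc
Clec4a1, chr6:122921598-122921897, plus strand: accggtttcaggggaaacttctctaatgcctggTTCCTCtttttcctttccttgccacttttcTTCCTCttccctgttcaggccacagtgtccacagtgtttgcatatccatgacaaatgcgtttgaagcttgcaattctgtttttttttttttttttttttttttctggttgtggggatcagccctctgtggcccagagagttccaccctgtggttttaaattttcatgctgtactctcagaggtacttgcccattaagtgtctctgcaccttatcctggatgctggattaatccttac
Clec4a3, chr6:122952265-122952564, plus strand: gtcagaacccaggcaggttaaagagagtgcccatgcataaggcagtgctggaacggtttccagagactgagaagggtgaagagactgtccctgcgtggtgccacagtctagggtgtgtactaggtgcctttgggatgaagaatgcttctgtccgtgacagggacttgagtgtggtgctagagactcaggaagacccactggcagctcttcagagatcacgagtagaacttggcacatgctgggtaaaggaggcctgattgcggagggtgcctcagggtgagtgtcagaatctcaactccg
GAGGAA was present, on one strand or the other, in 6 of the 8 windows and in 28.3% of the 32851 windows of the RefSeq table. Clec4d had 3 matches, Clec4e and Clec4a1 had 2 each, and Clec4a3 had 0. Of other motifs searched on both strands, TTGCNNAA (C/EBP) matched 2 of 8 windows against 10.8% of all, TGANTCA (AP-1) 2 of 8 against 7.81%, and TATAAA 4 of 8 against 13.6%. In these windows 0 pairs of matches of different motifs shared bases, and a match is a string in a window, not a shown binding site. In Clec4e a GAGGAA began 56 bases before the start, a TTGCNNAA 66 bases and a TATAAA 29 bases before it. The windows of Clec4a1 and Clec4a3 were identical at 42.7% of aligned columns and those of Clec4d and Clec4e at 45.5%, within the 42.1 to 50.6% seen over all 28 pairs of the 8 windows.

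Levels of the 10 transcripts differed widely. They are given first per kilobase of gene length, as CPM (read counts scaled to a common library size with TMM factors) divided by the deposited length. Clec4d, whose product binds mycobacterial cord factor as Mincle does, stood highest with 419 ± 22.3 CPM per kilobase in KO libraries and 432 ± 23.1 in WT libraries (SD, n = 4 each), above 99.1% of all genes in the table. It alone held 47.7 to 53.3% of the reads counted on the 10 genes, and the 10 together held 0.101 to 0.124% of all counts. Next came the inhibitory receptor gene Clec12a (41.8 ± 2.16 in KO and 45.4 ± 5.35 in WT) and Clec5a, the DAP12-coupled receptor (38.4 ± 1.77 in KO and 46.5 ± 9.20 in WT). Clec4e, encoding Mincle, had 31.6 ± 5.10 in KO and 34.3 ± 7.39 in WT.

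In the same unit Clec4n, encoding the mannan receptor Dectin-2, had 31.5 ± 2.39 CPM per kilobase in KO and 30.3 ± 3.48 in WT. The DCIR genes followed, with 26.9 ± 0.68 in KO and 28.0 ± 2.92 in WT for Clec4a2, 19.3 ± 1.33 in KO and 22.7 ± 3.99 in WT for Clec4a3, and 16.7 ± 2.41 in KO and 21.1 ± 6.52 in WT for Clec4a1. Clec7a, encoding the β-glucan receptor Dectin-1, had 7.89 ± 0.99 in KO and 9.75 ± 1.51 in WT, and Clec10a, encoding the galactose-type lectin MGL1, was lowest at 3.98 ± 0.48 in KO and 3.61 ± 0.92 in WT. Of the neighbours in this order, 5 pairs stood the same way round in 8 of 8 libraries: Clec4d over Clec12a, Clec5a over Clec4e, Clec4a2 over Clec4a3, Clec4a1 over Clec7a, and Clec7a over Clec10a. The order of Clec12a and Clec5a, of Clec4n and Clec4a2 and of Clec4a3 and Clec4a1 held in 6 of 8, namely in 4 of 4 KO libraries and in WT replicates 3 and 4, and was turned round in WT replicates 1 and 2. That of Clec4e and Clec4n held in 4 of 8, in 2 of each group, and their levels overlapped in both groups. Ranking by the authors' deposited log2 FPKM gave the same order of all 10.

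**Figure D1:**
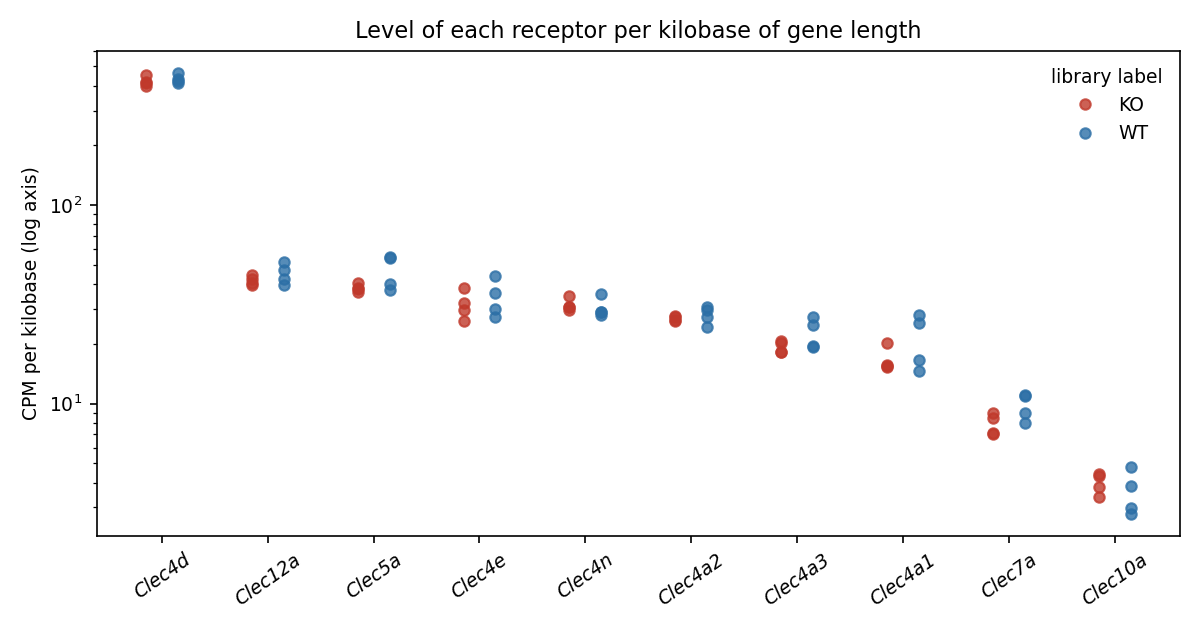
Level of each receptor gene as CPM per kilobase (log axis), 1 point per library, KO left of WT, ordered by the mean of the 8 libraries. Clec4d lies at 397.8 to 465 in the 8 libraries, 9.76 times the next gene by the ratio of means, and Clec10a lies lowest at 2.79 to 4.798.

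Reads that fit more than 1 gene could blur some of these values, since how the authors counted them is not given in the sources used here. Of the 50-base windows of the longest GENCODE M21 coding transcript, 8.19% in Clec4a2 (mostly matching Clec4a4 and Clec4b1), 10.6% in Clec10a (matching Mgl2) and 0.932% in Clec4n also occurred in a transcript of another gene. The share was 0% for each of the other 7 genes, Clec4a1 and Clec4a3 included. Values of Clec4a2 and Clec10a are therefore less certain.

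Facts of the libraries that touch every result below are these. Total counts were 47779990 to 53567289 in KO and 39601341 to 61556269 in WT, so that even Clec10a had 172 reads or more in each library. WT replicates 1 and 2 stood apart from the other 6 libraries: 1.79 and 1.83% of their raw reads were ribosomal against 2.71 to 9.10% in the others, 6.07 and 7.03% of unique reads were mitochondrial against 1.49 to 3.17%, and 76.4 and 75.8% of raw reads mapped uniquely against 83.8 to 86.996%. Ogfrl1 itself was read in all libraries, with 163 ± 23.7 CPM in KO and 213 ± 73.8 CPM in WT (log2 fold change -0.39, SE 0.24, edgeR adjusted p = 0.404), so whole-gene counts do not check the labels. All 8 macrophage markers (among them Adgre1, Csf1r and Mertk) were present, with a summed level of 19584 to 21340.04 CPM in KO and 17115 to 20326 CPM in WT.

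None of the 10 receptor genes differed between KO and WT by the test. The edgeR quasi-likelihood fit over all 11541 genes called 0 of the 10 at an adjusted p under 0.05, where it called 0% of all genes, and DESeq2 and limma-voom also called 0 of the 10. At an unadjusted p under 0.05 edgeR had 0 of the 10 and 6.52% of all genes, DESeq2 1 of the 10 and 10.2% of all genes, and limma-voom 0 of the 10 and 4.64% of all genes. By edgeR 0 of the 10 were lower in KO at that p, against 4.51% of all genes. Without WT replicate 4, 4 of the 10 and 45.1% of all genes had an edgeR unadjusted p under 0.05, and 0 were called. KO and WT values overlapped in all 10, while 2.64% of all genes had groups that did not overlap. Fold changes are KO over WT. They were negative for 8 of the 10 (50.7% of all genes), with a median log2 fold change of -0.12 against -0.00 over all genes. The 95% confidence interval stayed within a 2-fold change either way for all 10, and for 10444 of all 11541 genes. It stayed within a 1.5-fold change for 8, leaving out Clec4a1 and Clec7a, and for 6954 of all 11541 genes. In the authors' deposited table the false discovery rates of the 10 genes ran from 0.447 to 0.786.

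**Figure D2:**
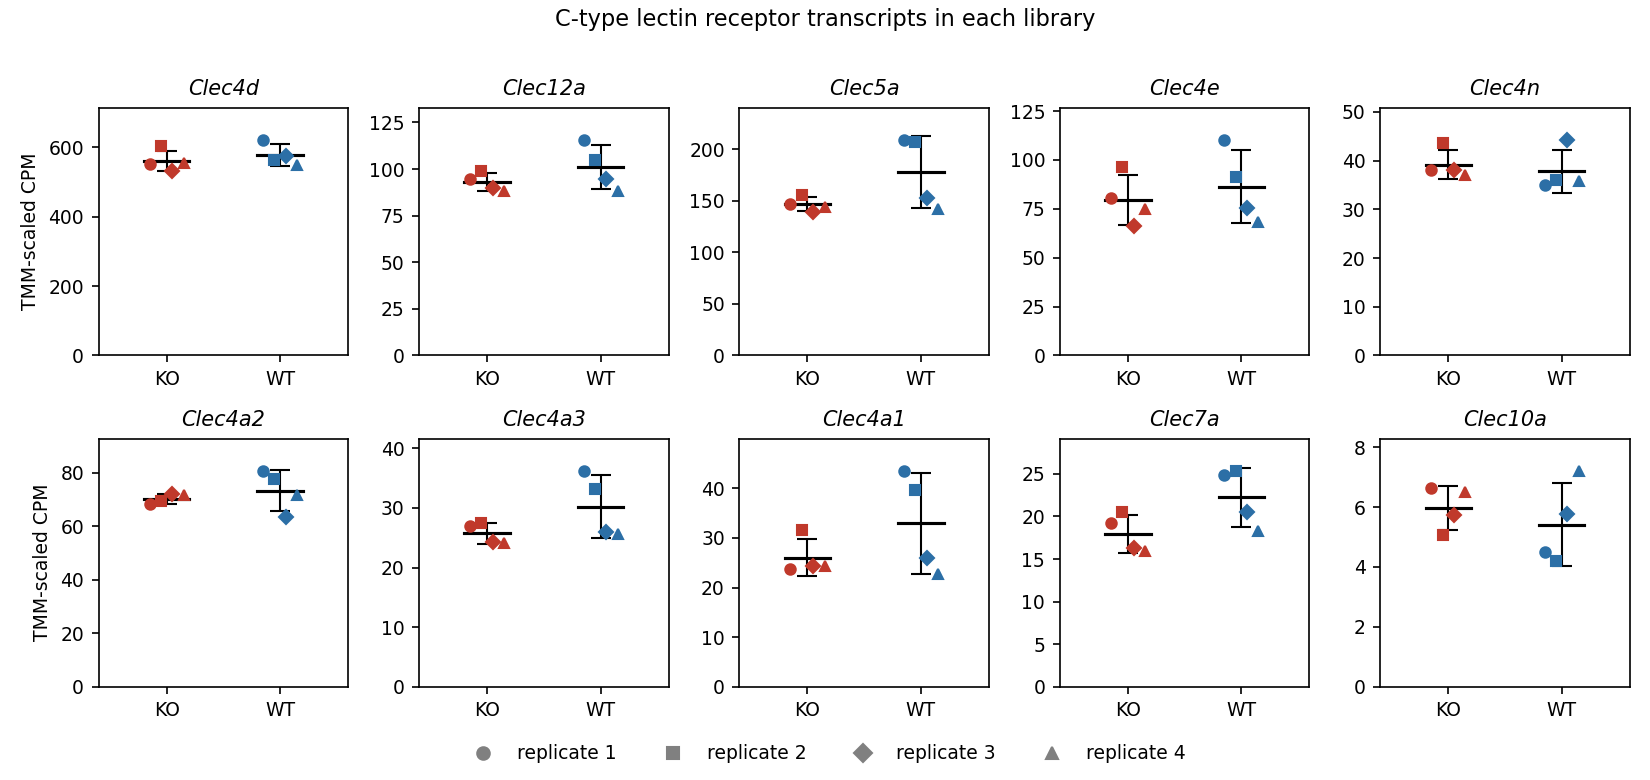
TMM-scaled CPM of each receptor gene by library, KO left of WT, with marker shapes for replicates and bars for mean ± SD (n = 4). The groups overlap in every panel, and WT replicates 1 and 2 lie on top in 6 of the 10.

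Among the FcRγ-coupled receptors, Clec4d had 552, 602, 531 and 555 CPM in KO replicates 1 to 4, against 621, 564, 576 and 549 CPM in WT replicates 1 to 4. All 8 values lay close together, and WT replicate 1 was highest. The log2 fold change was -0.04 (SE 0.07, 95% CI -0.20 to 0.12, edgeR adjusted p = 0.674).

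Clec4e, the neighbour of Clec4d and an inducible receptor for mycobacterial cord factor, had 80.7, 96.6, 66.1 and 74.8 CPM in KO, against 110.2, 91.4, 75.3 and 68.5 CPM in WT. WT replicate 1 and KO replicate 2 were the highest, so libraries of both labels stood at the top. Its log2 fold change was -0.12 (SE 0.17, CI -0.50 to 0.26, edgeR adjusted p = 0.640), with a sign that turned to 0.02 without WT replicate 1. Within a library, Clec4d exceeded Clec4e per kilobase by 11.8 to 15.2 times in KO and by 10.6 to 15.1 times in WT.

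Clec4n had 38.0, 43.6, 38.1 and 37.0 CPM in KO, against 35.01, 36.0, 44.3 and 35.8 CPM in WT. One library of each group, KO replicate 2 and WT replicate 3, stood above the rest. The log2 fold change was 0.05 (SE 0.10, CI -0.17 to 0.27, edgeR adjusted p = 0.718), and it was -0.00 without KO replicate 2.

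Clec7a came nearest to a difference. It had 19.2, 20.5, 16.2 and 15.9 CPM in KO, against 24.9, 25.3, 20.5 and 18.2 CPM in WT. WT replicates 1 and 2 lay above all KO libraries, and WT replicates 3 and 4 lay within the KO range. Means were 17.98 ± 2.25 CPM in KO and 22.2 ± 3.44 CPM in WT. The log2 fold change of -0.31 (SE 0.14, CI -0.61 to 0.00) missed the threshold (edgeR unadjusted p = 0.051, adjusted p = 0.404). That adjusted p was the smallest over all genes. Genes of unlike unadjusted p shared it, such as Clec4a1 (edgeR unadjusted p = 0.148). Against WT replicates 3 and 4 alone the log2 fold change of Clec7a was -0.11.

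Clec5a had 147, 156, 139.5 and 144 CPM in KO, against 209, 207, 153 and 142 CPM in WT. WT replicates 1 and 2 stood well above the other 6 libraries, and WT replicates 3 and 4 lay within the KO range. The log2 fold change was -0.28 (SE 0.13, CI -0.58 to 0.02, edgeR adjusted p = 0.404), and without WT replicates 1 and 2 it was -0.01.

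Of the inhibitory receptors, Clec12a, which senses uric acid crystals, had 94.6, 98.9, 89.9 and 88.3 CPM in KO, against 116, 105, 94.9 and 88.4 CPM in WT. The log2 fold change was -0.12 (SE 0.09, CI -0.33 to 0.09, edgeR adjusted p = 0.430). Clec4a2, encoding DCIR1, had 68.3, 69.3, 72.0 and 71.6 CPM in KO, against 80.6, 77.6, 63.3 and 71.6 CPM in WT. The 4 KO libraries were close to each other and sat inside the wider WT range, with a log2 fold change of -0.06 (SE 0.08, CI -0.25 to 0.13, edgeR adjusted p = 0.638).

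The other DCIR genes, Clec4a1 and Clec4a3, lie side by side and were high in the same libraries. Clec4a1 had 23.7, 31.6, 24.4 and 24.2 CPM in KO, against 43.5, 39.6, 25.9 and 22.7 CPM in WT. Clec4a3 had 27.0, 27.5, 24.3 and 24.1 CPM in KO, against 36.2, 33.2, 25.9 and 25.6 CPM in WT. In both, WT replicates 1 and 2 held the highest values and KO replicate 2 the third. WT replicates 1 and 2 also held the 2 highest values in 35.3% of all genes, so this is not particular to these neighbours. Log2 fold changes were -0.34 (SE 0.21, CI -0.82 to 0.15) for Clec4a1 and -0.23 (SE 0.13, CI -0.52 to 0.06) for Clec4a3, each with an edgeR adjusted p of 0.404. Against WT replicates 3 and 4 alone they were 0.10 and -0.00.

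Clec10a, often used as a marker of alternatively activated macrophages and dendritic cells, ran the other way. It had 6.625, 5.06, 5.73 and 6.49 CPM in KO, against 4.49, 4.19, 5.77 and 7.20 CPM in WT. WT replicates 1 and 2 were the lowest libraries and WT replicate 4 the highest. The log2 fold change was 0.14 (SE 0.19, CI -0.28 to 0.56, edgeR adjusted p = 0.623), and -0.12 without WT replicates 1 and 2.

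The 2 highest values were those of WT replicates 1 and 2 in 6 of the 10 receptor genes (Clec7a, Clec5a, Clec12a, Clec4a1, Clec4a2 and Clec4a3), a pattern found in 35.3% of all genes, and the 2 lowest were theirs in Clec10a alone, a pattern of 34.9% of all genes. The range over the 8 libraries on the log2 scale was widest in Clec4a1 (0.94) and narrowest in Clec4d (0.22). Within the KO libraries alone it was 0.08 in Clec4a2 to 0.55 in Clec4e, and within WT it was 0.18 in Clec4d to 0.94 in Clec4a1. Without WT replicates 1 and 2 the median log2 fold change of the 10 genes was -0.00 (-0.00 over all genes), with 6 of 10 negative (50.6% of all genes). In that fit edgeR called 0 of the 10 and 0% of all genes, and at an unadjusted p under 0.05 it had 0 of the 10 and 0.996% of all genes.

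**Figure D3:**
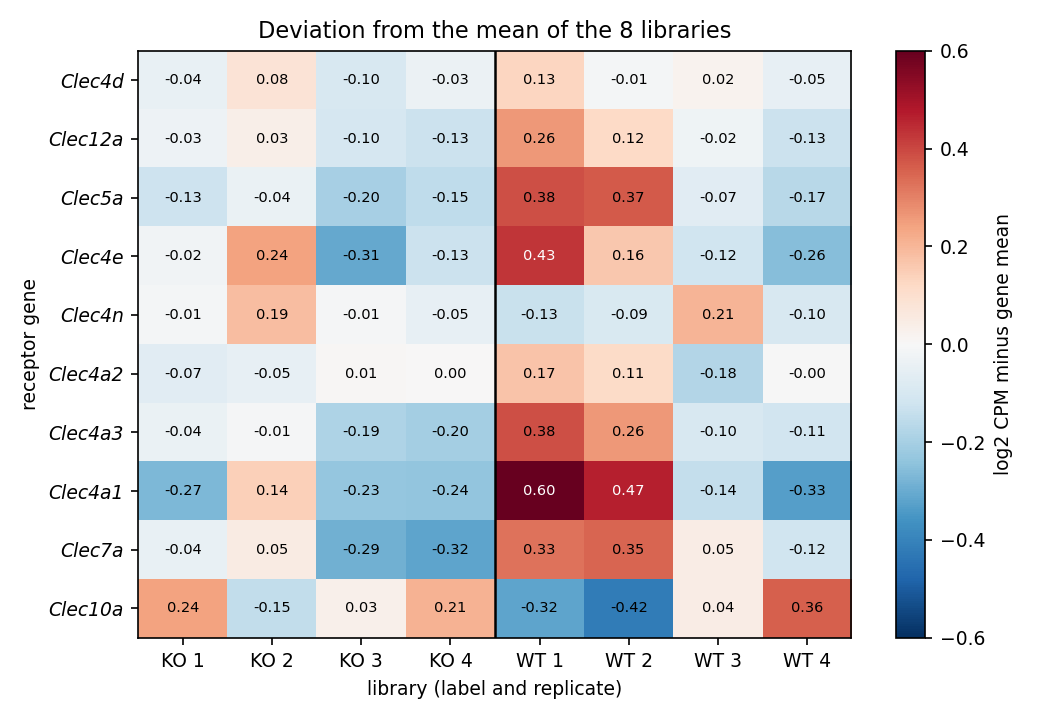
Deviation of log2 CPM from the mean of the 8 libraries for each receptor gene (rows) and library (columns, KO left of WT). WT replicates 1 and 2 are red in most rows, up to 0.60 for Clec4a1, and blue in Clec10a and Clec4n.

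Transcript GC content was compared with the fold changes over all genes, not within the 10. It was 41.1% in Clec7a to 46.0% in Clec4n for the 9 genes on chromosome 6 and 52.5% in Clec10a, with a median of 42.0% for the 10 genes and 50.4% over all genes with a match. Across all genes with a match, genes not being replicates of each other, the KO over WT change followed GC content with a Spearman rho of 0.73. In a fit with a correction for GC content the median log2 fold change of the 10 genes was 0.08 (0.00 over all genes). In that fit 3 of the 10 were negative (49.0% of all genes with a match), and edgeR called 0 of the 10 and 0 of all genes. Clec7a then had -0.04, Clec5a -0.01 and Clec4a1 -0.13. Clec4d (0.19), Clec4a2 (0.18), Clec4n (0.18) and Clec12a (0.14) then lay farther from 0 than in the fit without the correction.

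**Figure D4:**
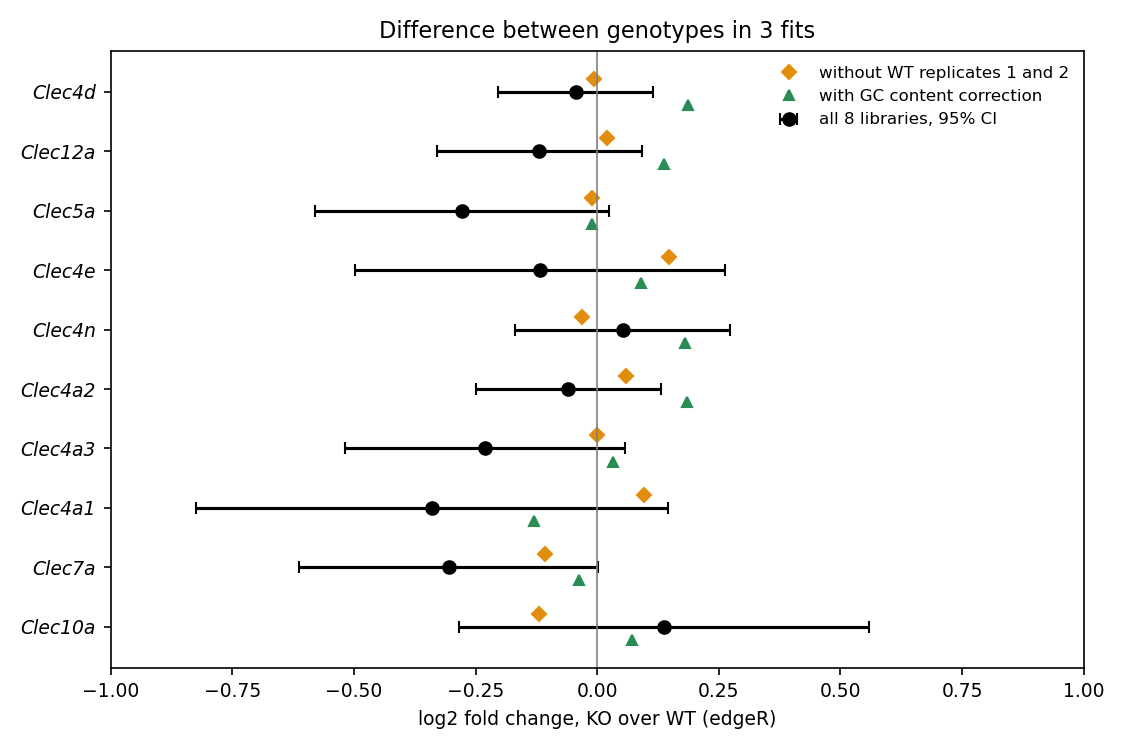
Log2 fold change of KO over WT for each receptor gene in 3 edgeR fits. Circles with 95% confidence intervals use all 8 libraries, diamonds leave out WT replicates 1 and 2, and triangles add the GC content correction. Every interval includes 0. The values nearest to a difference in the first fit, such as Clec5a at -0.28, are nearer to 0 in the others (-0.01 and -0.01). The triangles of Clec4d (0.19), Clec4a2 (0.18), Clec4n (0.18) and Clec12a (0.14) lie farther from 0 than their circles, as does the diamond of Clec4e (0.15).

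Markers of other cell types also moved between libraries. Of 13 neutrophil markers 12 were tested, Ly6g not being among the rows, and their summed level was 382 to 418 CPM in KO and 457 to 471 CPM in WT, without overlap. By edgeR 0 of the 12 were called, as were 0% of all genes. An edgeR unadjusted p under 0.05 with lower values in KO was found for 3 of the 12 (4.51% of all genes). The median log2 fold change of the 12 was -0.13 (-0.18 without WT replicates 1 and 2). Of 8 monocyte markers 7 were tested, with sums of 586 to 774 CPM in KO and 711 to 878 CPM in WT. Of 10 dendritic cell markers 6 were tested, with sums of 86.01 to 148 CPM in KO and 67.1 to 150.3 CPM in WT, and the defining markers Zbtb46, Xcr1, Ccr7 and Siglech were not among the rows. The 6 stromal markers tested of 8 summed to 23.5 to 91.6 CPM in KO and 11.99 to 126 CPM in WT. The part of these cells in the receptor values was not tested, and in bulk RNA fewer cells of a type and less RNA per cell cannot be told apart.

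Relatives outside the 10 gave a like picture. Of 47 further C-type lectin family genes 17 were tested, and edgeR called 0 of them and 0% of all genes. At an unadjusted p under 0.05 edgeR had 0 of the 17 and 6.52% of all genes. The median log2 fold change was -0.09, with 12 of the 17 negative (50.7% of all genes). Without WT replicates 1 and 2 the median was 0.025 with 6 negative (50.6% of all genes). With the GC content correction it was 0.056 with 4 negative (49.0% of all genes). Mrc1, the mannose receptor of macrophages, had 1291 ± 94.8 CPM in KO and 1506 ± 187 CPM in WT (SD, n = 4 each), a log2 fold change of -0.22 (edgeR adjusted p = 0.404). The 3 others of smallest p were Klra2 (-0.25), Clec2d, the ligand of an inhibitory natural killer cell receptor (0.42), and the scavenger receptor Colec12 (-0.19). Mgl2, the close relative of Clec10a, was near the lower end of the table with 0.57 ± 0.12 CPM in KO and 0.52 ± 0.13 CPM in WT.

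In the fit of all libraries the adaptors of the receptors leaned in different directions. Fcer1g had 295, 469, 345 and 302 CPM in KO, against 595, 585.5, 374 and 289.8 CPM in WT. Its log2 fold change was -0.39 (SE 0.25, edgeR adjusted p = 0.404). It was 0.09 without WT replicates 1 and 2 and -0.56 with the GC content correction. Tyrobp had 264, 223, 262 and 294 CPM in KO, against 207, 195, 242 and 324 CPM in WT. Its log2 fold change was 0.11 (SE 0.16, edgeR adjusted p = 0.661). It was -0.12 without WT replicates 1 and 2 and -0.03 with the GC content correction. WT replicates 1 and 2 were thus the highest libraries for the first adaptor and the lowest for the second. Within a library, Clec4d per kilobase was 0.63 to 0.92 times Fcer1g in KO and 0.47 to 0.93 times in WT, and Clec5a was 0.073 to 0.103 times Tyrobp in KO and 0.065 to 0.157 times in WT, with the extremes in WT libraries.

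Downstream, edgeR called 0 of 18 tested adaptor and kinase genes and 0% of all genes. At an unadjusted p under 0.05 edgeR had 1 of the 18 higher in KO, against 2.01% of all genes. The median log2 fold change of the 18 was 0.13. It was 0.004 without WT replicates 1 and 2 and -0.005 with the GC content correction. Syk had 253 ± 15.6 CPM in KO and 223 ± 33.9 CPM in WT (log2 fold change 0.18), and Card9, its downstream scaffold, had 60.5 ± 3.92 CPM in KO and 53.3 ± 11.3 CPM in WT (0.18). Malt1, the protease of the Card9 complex, had a log2 fold change of -0.37 and the exchange factor gene Vav3 -0.22. The edgeR adjusted p was 0.404 or higher for each. Without WT replicates 1 and 2 the log2 fold changes were 0.005 for Syk, -0.057 for Card9, -0.011 for Malt1 and -0.033 for Vav3.

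On the inhibitory side edgeR called 0 of 9 tested genes and 0% of all genes, with a median log2 fold change of 0.00 for the 9. By edgeR 0 of the 9 had an unadjusted p under 0.05, against 6.52% of all genes. Ptpn6, the phosphatase SHP-1, had 280.3 ± 17.1 CPM in KO and 281 ± 19.3 CPM in WT, a log2 fold change of -0.00 (CI -0.18 to 0.17). The lipid phosphatase gene Inpp5d had a log2 fold change of 0.16, Sirpa 0.14, Cd300a 0.16 and Lilrb4a -0.13. All 9 confidence intervals lay within a 1.5-fold change, as did those of 6954 of all 11541 genes.

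Of 23 genes that Syk and Card9 signalling can induce or act through, 16 were tested. By edgeR 0 of the 16 were called, as were 0% of all genes. Unadjusted p-values under 0.05 were found for 4 of the 16, each higher in KO, against 2.01% of all genes. These were Tnf, Il1b, Ccl4 and the NF-κB subunit gene Relb, with log2 fold changes of 0.47, 0.83, 0.26 and 0.55, each at an edgeR adjusted p of 0.404. The list was chosen with earlier results of these data known, so its share beside that of all genes is not an independent test. Tnf had 53.2, 45.7, 52.7 and 57.0 CPM in KO, against 33.8, 33.0, 39.8 and 43.6 CPM in WT. Il1b was low, at 0.94 ± 0.25 CPM in KO and 0.52 ± 0.08 CPM in WT. The groups did not overlap for Tnf, Il1b and Ccl4, and they overlapped for Relb. These 4 were the list's genes of smallest p, a choice that favours groups without overlap, found in 2.64% of all genes. Without WT replicates 1 and 2 the log2 fold changes were 0.32 for Tnf, 0.71 for Il1b, 0.27 for Ccl4 and 0.21 for Relb. Il6, Il10, Il12b, Il23a, Egr3, Csf2 and Csf3 were not among the rows.

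**Figure D5:**
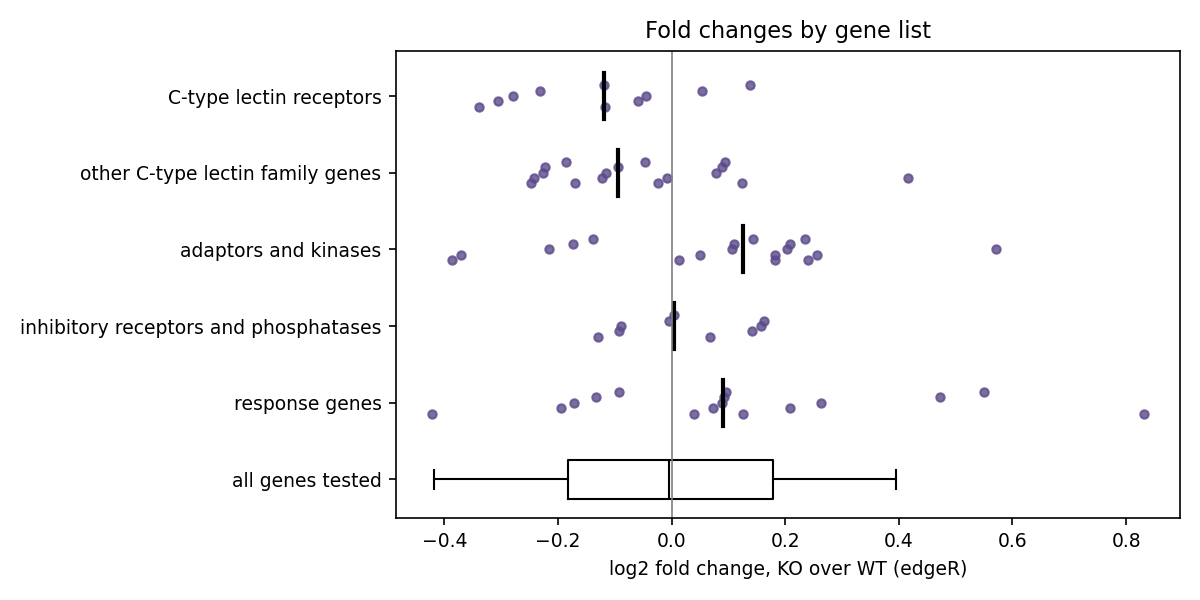
Log2 fold change of KO over WT by gene list, 1 point per tested gene with the list's median as a bar, and below them a box for all 11541 genes (quartiles, whiskers at the 5th and 95th percentiles). The 10 receptor genes lie between -0.34 and 0.14, inside the whiskers of all genes.

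The genes most like the most and least variable of the 10 over the 8 libraries were found by the root mean square difference of centred log2 CPM. For Clec4a1 these were Brcc3 (0.03), C1galt1 (0.04), Tyw5 (0.04) and Rbms1 (0.05). For Clec4d, also the gene of highest level, they were Ccnb2 (0.02), Parn (0.02), Pgrmc2 (0.03) and Pdia4 (0.03). None of these 8 is a C-type lectin gene.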

How the data were processed

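Messenger RNA of 8 libraries was sequenced by the authors. The deposited counts are raw reads per gene that featureCounts made, per the file headers, after alignment with STAR to mm10, per the submitters' processing notes. For versions, annotation, strand setting and the filter that left 11541 genes, the answer is not given in the sources used here. The authors also deposited log2 FPKM, a signed fold change score, p-values and false discovery rates, per the file headers. These served as checks only, as did the percentages of ribosomal and other reads in the authors' mapping statistics, where other units are mixed.

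KO was compared with WT on the counts of all genes by edgeR 4.0.16 (quasi-likelihood, TMM factors, two-sided, default expression filter, which removed 0 genes) in R 4.3.3, with Benjamini-Hochberg adjustment over all genes and a threshold of 0.05. Standard errors and confidence intervals came from the F statistic. DESeq2 1.42.0, limma 3.58.1 (voom), other factors and filters, left-out libraries and a GC content correction were alternatives. The correction smoothed each library's log2 CPM deviation (prior count 2) on the mean GC content of GENCODE M21 transcripts by loess (span 0.5) for the 11113 genes matched by symbol (96.3%) and used it as an offset. The fits were also run on simulated data, drawn without a trend in GC content and without libraries that stood apart. How the fits behave with such features was not tested. Sequences were aligned with Biopython 1.88. Any pair of libraries differed by far more than sampling noise (chi-square over its degrees of freedom 7.25 or more). Total counts were 39601341 to 61556269 a library. Members and gene lists were chosen with earlier results of these data known. The text names the 10 receptor genes, Ogfrl1, 4 genes of smallest p and fixed members of each list, and the 4 genes nearest in pattern to the most variable and the highest receptor gene. Some genes that this rule names are not reported here.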

Additional observations from a re-analysis of the deposited data

Results flagged for a closer look

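In some groups of 4 libraries 1 library lay far from the other 3, by a gap larger, relative to the group's range, than Dixon's 95% critical value. Of 66 groups examined over the genes named with values, 5 did so, and chance alone flags about 1 in 20. Clec4a1 had 31.6 CPM in KO replicate 2, against 24.4 CPM in the next KO library. Clec4n had 43.6 CPM in KO replicate 2, with 38.1 CPM next, and 44.3 CPM in WT replicate 3, with 36.0 CPM next. Among the other genes, Cd300a (51.1 CPM, with 62.6 CPM next) and Card9 (54.7 CPM, with 62.0 CPM next) were low in KO replicate 2. KO replicate 2 also had 2.71% ribosomal reads, against 7.16 to 8.24% in the other KO libraries, and its part in these values was not tested.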

How the results depend on the processing

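No paired analysis was possible because the labels give no number shared between KO and WT libraries. All 16 alternatives called 0 of the 10 receptor genes, and over all genes they called 0 except DESeq2, which called 1. Leaving out each library in turn gave 0 to 0 calls over all genes and 0 to 0 among the 10, but the genes at an unadjusted p under 0.05 ran from 134 without KO replicate 3 to 5207 without WT replicate 4, where 4 of the 10 receptor genes were among them. The range of log2 fold changes with 1 library left out stayed on 1 side of 0 for 8 of the 10 receptor genes, with exceptions in Clec4e (-0.22 to 0.022) and Clec4n (-0.0024 to 0.14), and likewise changed sign for Mgl2 (-0.031 to 0.25) and Ptpn6 (-0.042 to 0.036). Without WT replicates 1 and 2 the sign turned for Clec4e (0.15), Clec4a1 (0.097), Clec4a2 (0.060), Clec12a (0.020), Clec4n (-0.031), Clec10a (-0.12), Ogfrl1 (0.12), Fcer1g (0.088), Lilrb4a (0.092), Colec12 (0.0099), Tyrobp (-0.12), Mgl2 (-0.085), Cd300a (-0.082), Card9 (-0.057) and Inpp5d (-0.0059). With the GC content correction it turned for Clec4d (0.19), Clec4a2 (0.18), Clec12a (0.14), Clec4e (0.090), Clec4a3 (0.032), Lilrb4a (0.11), Mrc1 (0.076), Klra2 (0.045), Colec12 (0.020), Card9 (-0.040), Tyrobp (-0.034) and Sirpa (-0.060). With upper-quartile factors it turned for Ptpn6 (0.033). The cause was not tested. Clec7a and Clec5a kept a negative sign in all 16 alternatives, at -0.39 to -0.037 and -0.37 to -0.0097. Il1b and Mgl2 had no value under the filter of 1 CPM in 4 libraries, which removed them.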
